A study of Mus musculus with 4 samples.

Results

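The thrombospondin family was described in mouse embryonic fibroblasts (MEF) through its 5 genes, *Thbs1*, *Thbs2*, *Thbs3*, *Thbs4* and *Comp*. The family was taken up because *Thbs4* had one of the largest increases on TGFB1, so the TGFB1 responses are given as a description and support nothing. They are 5 of the 20815 protein-coding genes that the deposited table covers, and 6 of its 63759 transcripts belong to them. Of the 5, 4 passed a filter of at least 1 RPKM in at least 1 library, as did 10742 protein-coding genes in all. *Comp* did not pass it. RPKM give the read density of a transcript, corrected for its length and for the sequencing depth of the library.

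Stranded RNA-seq of total RNA was done on 4 libraries, 1 for each combination of genotype and treatment. *Hmga2*+/+ MEF are wild type and *Hmga2*−/− MEF carry the constitutive knockout of *Hmga2* (Hmga-/- in the genotype label), which encodes an architectural chromatin protein. Both lines came from C57BL/6 embryos at embryonic day 15.5, were immortalised with SV40 and were starved overnight in 1% FCS. They then received water (Ctrl) or 10 ng/ml human recombinant TGFB1, a cytokine that activates fibroblasts, for 24 h. How many embryos or clones stand behind each line is not given in the sources used here, so genotype and differences between cultures cannot be told apart. With 1 library per condition there is no replicate check, and no p-value is given. Intervals in brackets are exact 95% intervals of the ratio of 2 read numbers, which cover counting error only and compare libraries. In bulk RNA, fewer cells of a type and less RNA per cell cannot be told apart.

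The 4 libraries had 56140000 to 57300000 mapped reads, derived from the steps of the RPKM. *Hmga2* itself had 14.8 RPKM without and 40.7 RPKM with TGFB1 in wild-type cells, and neither knockout library held a read of it (0 reads). Of 9 fibroblast markers, 8 or 9 reached 1 RPKM in each library, and none of 5 epithelial, 4 blood and 4 skeletal muscle markers did.

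Thrombospondins are secreted, calcium-binding glycoproteins that assemble into oligomers and connect collagens, proteoglycans, growth factors and cell surface receptors. THBS1 and THBS2 form trimers and carry the thrombospondin type 1 repeats that bind CD36 and inhibit the growth of blood vessels. THBS3, THBS4 and COMP form pentamers, lack those repeats and are known from cartilage, tendon, bone and muscle. Fibroblasts secrete several of them into the provisional matrix of wounds and fibrotic tissue.

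All 5 proteins share calcium-binding repeats and a C-terminal lectin-like domain, so the coding sequences were compared to see whether reads could be confused between members. In the GENCODE vM21 models the proteins have 1171 residues for THBS1, 1172 for THBS2, 956 for THBS3, 963 for THBS4 and 755 for COMP. Identity of the coding sequences over aligned bases ran from 63.9% between *Thbs2* and *Thbs3* to 71.7% between *Thbs4* and *Comp*. The longest identical runs in any of the 10 pairs had 26 bases, against reads of 75 bases before trimming. These runs were found in 2 pairs, and are printed because they are the stretches where reads of different members are most alike. Capitals mark the identical run and lower case the coding bases beside it, and positions are in GRCm38 (mm10).

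*Thbs1*, exon 15, chr2:118120873-118120938, plus strand: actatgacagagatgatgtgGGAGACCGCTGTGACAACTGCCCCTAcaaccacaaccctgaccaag
*Thbs2*, exon 15, chr17:14676264-14676329, minus strand: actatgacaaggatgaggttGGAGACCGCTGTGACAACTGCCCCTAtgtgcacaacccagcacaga
*Thbs4*, exon 18, chr13:92755369-92755417, minus strand: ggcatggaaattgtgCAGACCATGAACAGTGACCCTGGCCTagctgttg
*Comp*, exon 15, chr8:70379681-70379729, plus strand: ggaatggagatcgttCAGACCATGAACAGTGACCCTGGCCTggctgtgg

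The *Thbs1* and *Thbs2* run lies in the calcium-binding repeats shared by the family. No pair shared a coding run as long as an untrimmed read, and a read without errors that is longer than these runs matches 1 member. Reads were trimmed before mapping, and one trimmed to the length of a shared run could match more than 1 member. Transcript ends outside the coding sequence were not compared. No transcript on the opposite strand of the table overlaps any of the 5 genes.

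The 250 bases before the start site were available from RefSeq (GRCm38.p6) for *Thbs2*, *Thbs3* and *Thbs4*. They are shown because the levels of *Thbs2* and *Thbs4* rose on TGFB1 and that of *Thbs3* did not pass 1.5-fold. Capitals mark matches to short motifs, which were searched on both strands. The SMAD box, bound by the effectors of TGFB signalling, was searched as CAGAC. The AP-1 site, bound by JUN and FOS, was searched as TGACTCA. The TEAD site, where YAP1 and WWTR1 act through TEAD factors, was searched as GGAATG. The other motifs were the promoter elements TATAAA, the CCAAT box under its own letters, and the GC box of SP1, searched as GGGCGG.

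*Thbs2*, chr17:14694263-14694512, minus strand: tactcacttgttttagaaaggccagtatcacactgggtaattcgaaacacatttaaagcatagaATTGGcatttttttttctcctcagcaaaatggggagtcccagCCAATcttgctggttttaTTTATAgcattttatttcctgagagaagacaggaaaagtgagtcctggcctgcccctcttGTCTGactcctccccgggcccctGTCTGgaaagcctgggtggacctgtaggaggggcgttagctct
*Thbs3*, chr3:89214930-89215179, plus strand: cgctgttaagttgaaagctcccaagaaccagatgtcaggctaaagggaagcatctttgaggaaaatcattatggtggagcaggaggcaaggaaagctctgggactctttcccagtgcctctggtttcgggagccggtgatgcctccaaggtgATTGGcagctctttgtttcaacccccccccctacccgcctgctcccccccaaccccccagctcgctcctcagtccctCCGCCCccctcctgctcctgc
*Thbs4*, chr13:92794819-92795068, minus strand: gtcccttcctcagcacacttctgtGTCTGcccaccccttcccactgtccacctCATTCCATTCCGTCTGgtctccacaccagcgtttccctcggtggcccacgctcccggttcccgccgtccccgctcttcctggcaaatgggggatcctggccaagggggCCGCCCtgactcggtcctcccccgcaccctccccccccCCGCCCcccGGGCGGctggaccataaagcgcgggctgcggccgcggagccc

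The *Thbs4* window held 2 matches to the SMAD box, at −226 to −222 and −186 to −182 from the start site. Directly beside the latter lie 2 matches to the TEAD motif, at −197 to −192 and −192 to −187, which share 1 base. It also held 3 GC boxes, a GC content of 70.8% and 19 CG dinucleotides. In the *Thbs2* window there were 2 SMAD box matches, at −66 to −62 and −43 to −39, and 2 CCAAT boxes. Its 1 TATAAA match lies at −126 to −121 on the strand opposite to the gene. The window had a GC content of 46.8% and 3 CG dinucleotides. The *Thbs3* window held 1 CCAAT box and 1 GC box, with a GC content of 58.8% and 6 CG dinucleotides. AP-1 letters were in none of the 3 windows.

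These motifs are short and common. Of 32817 promoter windows of the same length, 42.2% held the SMAD box and 11.7% held at least 2, whereas 12.6% held the TEAD letters and 1.02% held at least 2. The CCAAT box was in 33.8%, the GC box in 32.7%, TATAAA in 12.4% and the AP-1 letters in 4.46% of the windows. At least 2 CCAAT boxes were in 10.1% and at least 2 GC boxes in 16.7%. The median window had a GC content of 52.4% and 6 CG dinucleotides. A match describes the letters of the window and no binding was measured at it.

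*Thbs1* encodes the trimer that activates latent TGFB and inhibits angiogenesis. It lies on the plus strand of chromosome 2 (118111876 to 118127133), and its level in *Hmga2*+/+ MEF was 97.4 RPKM for Ctrl and 219 RPKM for TGFB1. In *Hmga2*−/− MEF it was 141 RPKM for Ctrl and 398 RPKM for TGFB1. It was the most abundant member in every library, both TGFB1 libraries lay above both Ctrl libraries, and each *Hmga2*−/− library lay above its *Hmga2*+/+ counterpart. Among the 20815 protein-coding genes it ranked 172 in the *Hmga2*+/+ Ctrl library. Its rank was 26 in the *Hmga2*−/− TGFB1 library, where it took 0.231% of the mapped reads. The second *Thbs1* transcript of the table shares nearly all its length with the first, and its 97.1, 221, 141 and 400 RPKM are no separate measurement.

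*Thbs2* encodes the other antiangiogenic trimer, which also shapes collagen fibrils. It lies on the minus strand of chromosome 17 (14665500 to 14694262) and had 28.5, 116, 17.2 and 137 RPKM in the order *Hmga2*+/+ Ctrl, *Hmga2*+/+ TGFB1, *Hmga2*−/− Ctrl and *Hmga2*−/− TGFB1. The lowest and the highest of these levels were both in *Hmga2*−/− MEF. The reads behind them numbered 9394, 39110, 5727 and 45936.

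*Thbs3* encodes a pentamer known from skeletal development. It lies on the plus strand of chromosome 3 (89215187 to 89226837) and had 13.9, 10.1, 10.6 and 8.77 RPKM in the same order of libraries, from 1567 to 2442 reads. It was the steadiest member, with its highest level in the *Hmga2*+/+ Ctrl library and its lowest in the *Hmga2*−/− TGFB1 library.

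*Thbs4* encodes a pentamer of tendon, heart and skeletal muscle that is raised in injured tissue. It lies on the minus strand of chromosome 13 (92751586 to 92794818) and had 1.97, 103, 4.10 and 113 RPKM in the same order. Both Ctrl libraries had few reads (350 and 733) and both TGFB1 libraries many (18600 and 20349). Its rank among protein-coding genes was 9287 and 7275 in the Ctrl libraries and 195 and 191 in the TGFB1 libraries.

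*Comp* encodes cartilage oligomeric matrix protein, a pentamer that binds collagen fibrils in cartilage and tendon. It lies on the plus strand of chromosome 8 (70373548 to 70382066) and had 0.343, 0.614, 0.754 and 0.934 RPKM in the same order. Its 46 to 127 reads make it the member with the widest intervals, and all 4 levels lay under the 1 RPKM of the filter.

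**Figure D1:**
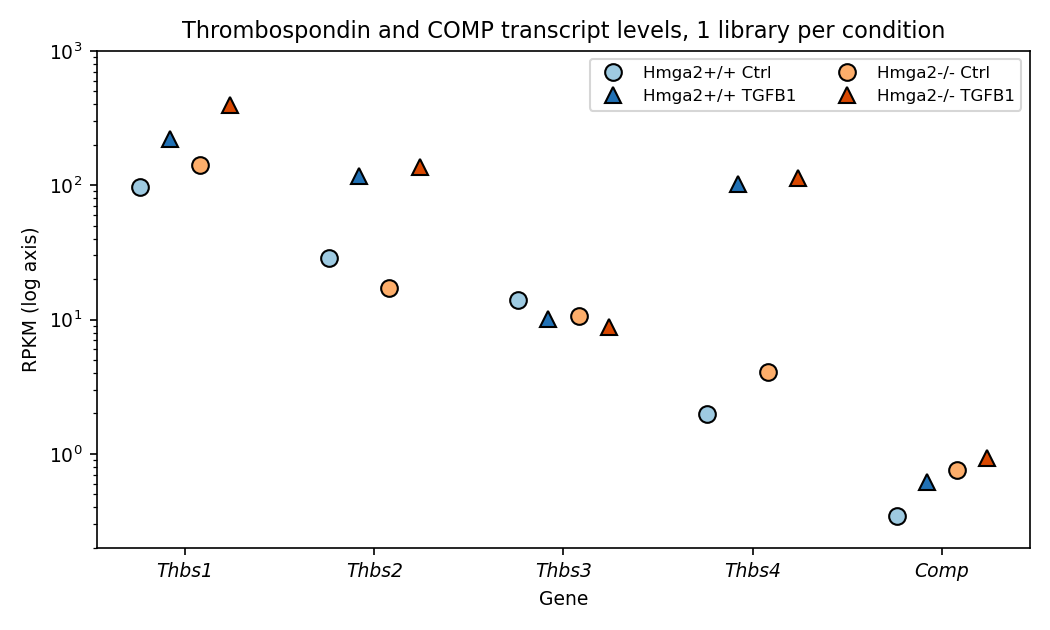
RPKM of the 5 genes on a log axis, with 1 point per library (circles, Ctrl; triangles, TGFB1; blue, *Hmga2*+/+; orange, *Hmga2*−/−). *Thbs4* has the widest gap between Ctrl (1.97 and 4.10 RPKM) and TGFB1 (103 and 113 RPKM), and *Comp* stays under 1 RPKM in all 4 libraries.

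The make-up of the family differed between the TGFB1 and Ctrl libraries, as did its amount. This is a description, since the family was picked for the *Thbs4* increase that enters both. In RPKM, which compare genes per length, the 5 genes of *Hmga2*+/+ MEF summed to 142 for Ctrl and 449 for TGFB1, and those of *Hmga2*−/− MEF to 173 and 658. The sum was thus 3.16-fold higher on TGFB1 in *Hmga2*+/+ and 3.79-fold higher in *Hmga2*−/− MEF. Between genotypes it was 1.22-fold higher in the *Hmga2*−/− Ctrl and 1.47-fold higher in the *Hmga2*−/− TGFB1 library.

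*Thbs1* made up 68.6% of the summed RPKM in the *Hmga2*+/+ Ctrl library and 48.9% with TGFB1, and 81.2% and 60.5% in *Hmga2*−/− MEF. The share of *Thbs4* went from 1.39% to 22.9% in *Hmga2*+/+ and from 2.36% to 17.2% in *Hmga2*−/− MEF. *Thbs2* held 20.0% and 25.9% in *Hmga2*+/+ MEF, compared with 9.92% and 20.9% in *Hmga2*−/− MEF. *Thbs3* gave way, from 9.76% to 2.25% in *Hmga2*+/+ and from 6.10% to 1.33% in *Hmga2*−/− MEF, and *Comp* never exceeded 0.435%. The order of levels was *Thbs1*, *Thbs2*, *Thbs3*, *Thbs4* and *Comp* in both Ctrl libraries, and *Thbs4* stood before *Thbs3* in both TGFB1 libraries. The nearest neighbours in that order at high level were *Thbs2* and *Thbs4* on TGFB1, and without replicates it is not known whether their levels differ beyond the spread.

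**Figure D2:**
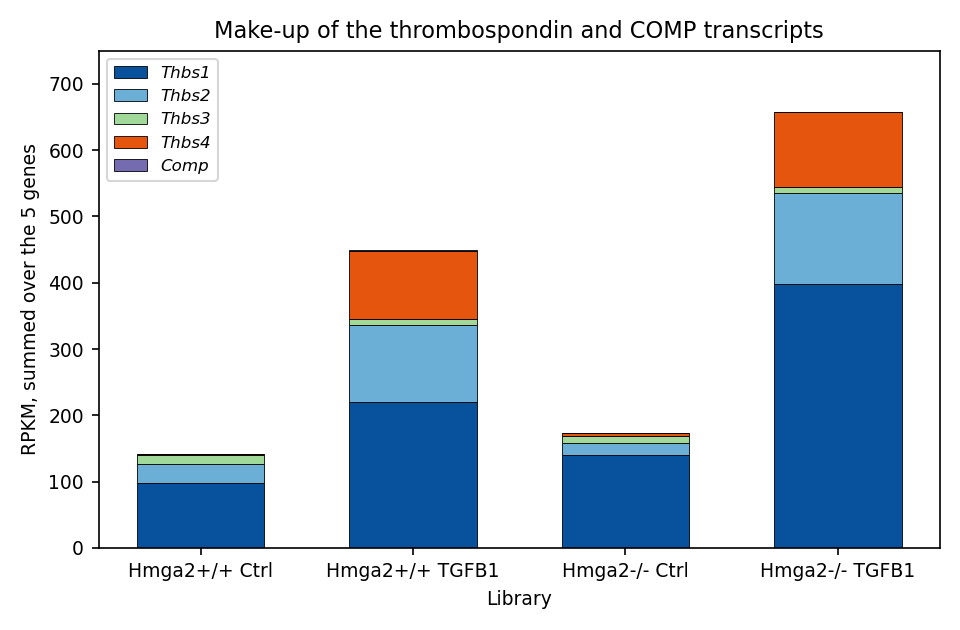
Summed RPKM of the 5 genes in each library, stacked by gene with *Thbs1* at the bottom. The bars reach 142, 449, 173 and 658 RPKM, and the *Thbs4* segment is visible as a large share in the TGFB1 libraries (22.9% and 17.2%).

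In *Hmga2*+/+ MEF, the comparison that the choice of the family used, *Thbs4* was 52.1-fold higher with TGFB1 (log2 change 5.70 [5.55 to 5.86]), at place 7 of the 10742 genes ordered by log2 change. *Thbs2* was 4.08-fold higher (2.03 [1.996 to 2.06]) and *Thbs1* 2.25-fold higher (1.17 [1.15 to 1.19]). *Thbs3* was 1.37-fold lower (−0.46 [−0.54 to −0.37]). *Comp* was 1.79-fold higher (0.84 [0.30 to 1.39]), from 46 and 84 reads. Past 1.5-fold, 3 of the 4 members tested were higher and 0 lower, beside 11.4% and 16.8% of all genes tested. The median log2 change was 1.17 over all 5 members, *Comp* included, and 1.60 over the 4 that passed the filter, beside −0.05 over all genes tested. Nothing is read from these counts, since the family was picked on this comparison.

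The TGFB1 response in *Hmga2*−/− MEF comes from the other pair of libraries and is likewise a description, because the family was chosen for an increase on TGFB1 without a genotype being named. *Thbs4* rose 27.6-fold (log2 change 4.79 [4.68 to 4.89]), at place 15 of the 10742 genes. *Thbs2* rose 7.97-fold (2.995 [2.96 to 3.04]), at place 66, and *Thbs1* rose 2.83-fold (1.499 [1.48 to 1.51]), at place 255. *Thbs3* was 1.21-fold lower (−0.27 [−0.37 to −0.17]), within the 1.5-fold threshold. For *Comp* the interval of the log2 change, 0.31 [−0.08 to 0.70], included 0, so a difference was not detectable at this depth. By the 1.5-fold threshold 3 of the 4 members tested rose and 0 fell, beside 13.1% and 15.1% of all genes tested. The median was 1.499 over all 5 members and 2.25 over the 4 that passed the filter, beside 0.01 over all genes tested.

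Set against each other, the responses of single members differed between genotypes by more than counting error. The log2 response of *Thbs2* was 0.97 [0.92 to 1.02] larger in *Hmga2*−/− than in *Hmga2*+/+ MEF, a difference above that of 99.7% of the genes tested. The *Thbs4* response was smaller in *Hmga2*−/− MEF, with a difference of −0.92 [−1.11 to −0.73], and 0.391% of the genes tested had a lower difference. The *Hmga2*+/+ response that enters this difference is a value the family was chosen on, so the *Thbs4* difference is a description too. The differences were 0.33 [0.30 to 0.35] for *Thbs1* and 0.19 [0.05 to 0.32] for *Thbs3*. For *Comp* it was −0.53 [−1.21 to 0.14], an interval that includes 0.

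Over all genes tested this difference had a median of 0.05, and it ran from −0.35 to 0.45 between the 5th and 95th percentiles. *Thbs2* and *Thbs4* thus lay outside that range on opposite sides, and *Thbs1* and *Thbs3* lay inside it. On the log2 scale, most of both differences lay between the Ctrl libraries. There *Thbs2* started lower (17.2 against 28.5 RPKM) and *Thbs4* higher (4.10 against 1.97 RPKM) in *Hmga2*−/− MEF. As ratios, the TGFB1 libraries lay closer together (137 against 116 RPKM, and 113 against 103 RPKM). Their log2 changes between genotypes were 0.24 and 0.14, beside −0.73 and 1.05 in Ctrl. In RPKM the TGFB1 libraries lay farther apart than the Ctrl libraries for both genes. The spread between cultures is unknown, so whether these differences exceed it was not tested.

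**Figure D3:**
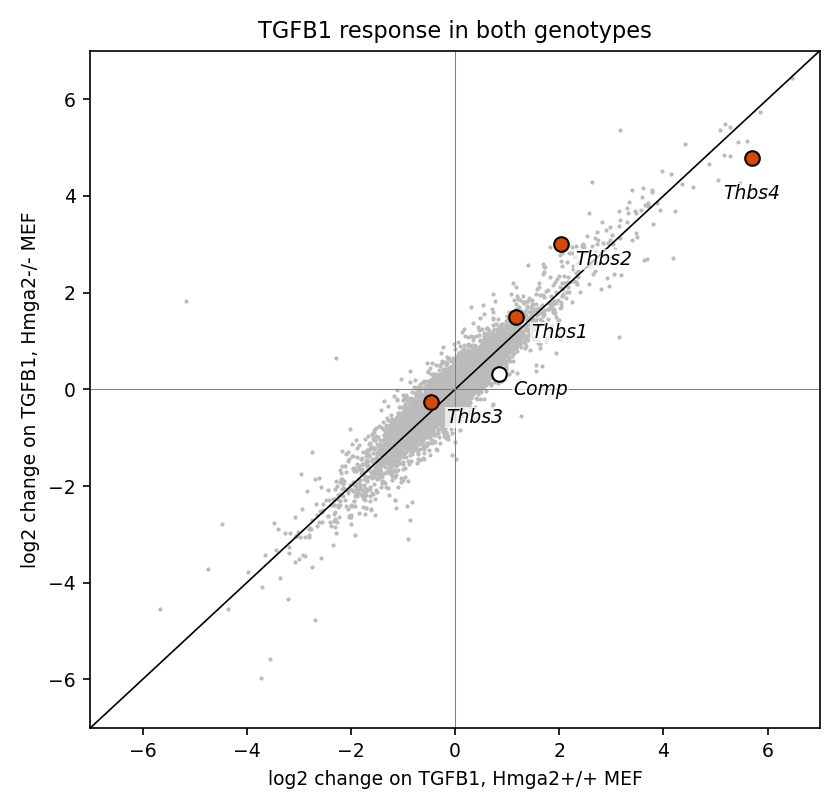
Log2 change on TGFB1 in *Hmga2*+/+ MEF (x axis) against *Hmga2*−/− MEF (y axis) for the 10742 genes tested (grey, 7 of them outside the axes) and the members (orange; *Comp*, white, did not pass the filter), with the line of equal response. *Thbs2* lies above the line (2.03 and 2.995) and *Thbs4* below it (5.70 and 4.79).

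Between the Ctrl libraries, the basal level of *Thbs4* was 2.08-fold higher in *Hmga2*−/− than in *Hmga2*+/+ MEF (log2 change 1.05 [0.87 to 1.24]). *Thbs2* was 1.65-fold lower (−0.73 [−0.77 to −0.68]), and *Thbs3* 1.31-fold lower (−0.39 [−0.48 to −0.30]). *Thbs1* was 1.44-fold higher (0.53 [0.51 to 0.55]), just under the threshold. *Comp* was 2.20-fold higher (1.14 [0.62 to 1.67]), from 46 and 102 reads. So 1 of the 4 members tested was at least 1.5-fold higher and 1 at least 1.5-fold lower, beside 2.37% and 1.64% of all genes tested. The median log2 change was 0.53 over all 5 members with *Comp*, but 0.07 over the 4 that passed the filter, beside −0.02 over all genes tested. The *Thbs4* value shares its *Hmga2*+/+ library with the response the family was chosen on.

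With TGFB1 present, *Thbs1* was the only one of the 4 members past the threshold, 1.81-fold higher in *Hmga2*−/− MEF (0.86 [0.85 to 0.87]). *Thbs2* was 1.18-fold higher (0.24 [0.22 to 0.26]) and *Thbs4* 1.10-fold higher (0.14 [0.11 to 0.17]), and *Thbs3* had a log2 change of −0.20 [−0.30 to −0.11]. *Comp* was 1.52-fold higher (0.61 [0.20 to 1.02]). The counts of 1 higher and 0 lower stand beside 3.12% and 1.98% of all genes tested, and the median was 0.24 over all 5 members and 0.19 over the 4 that passed the filter, beside 0.04 over all genes. The genotype comparisons and the TGFB1 comparisons share libraries, so they are not independent of each other.

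**Figure D4:**
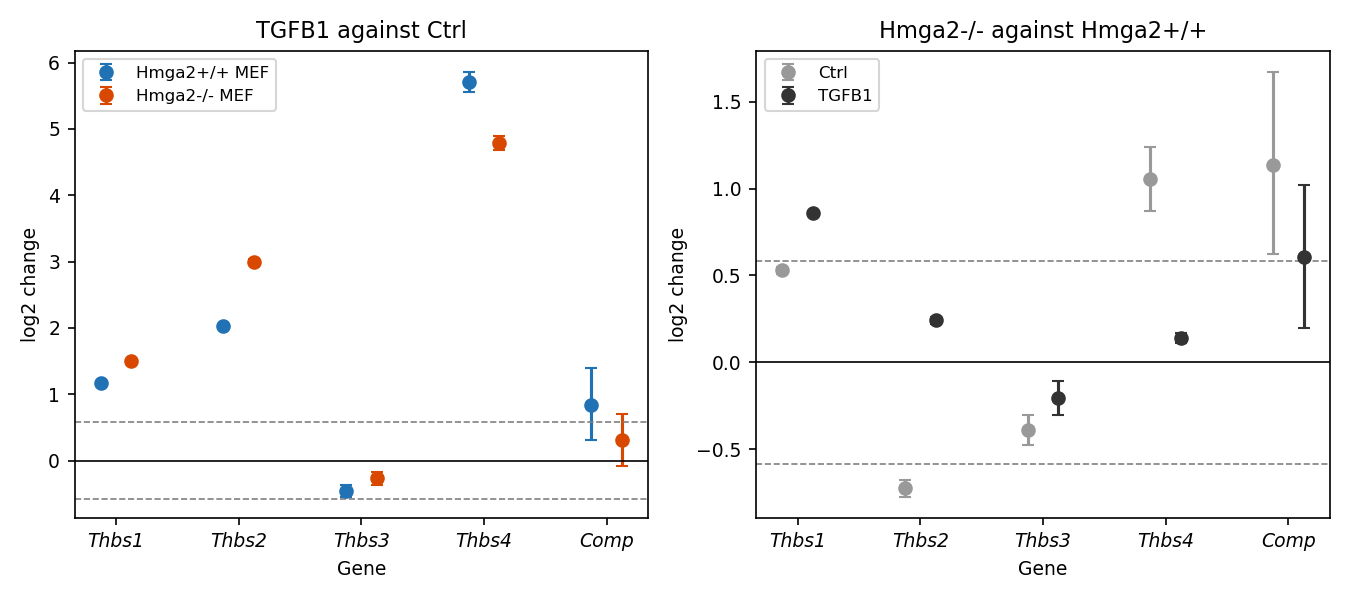
Log2 changes of the 5 genes for TGFB1 against Ctrl (left) and *Hmga2*−/− against *Hmga2*+/+ MEF (right). Bars are exact 95% intervals from counting error, hidden by the symbol where narrow, and dashed lines mark 1.5-fold; *Thbs2* changes sign between Ctrl (−0.73) and TGFB1 (0.24) on the right.

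Tendon and cartilage markers were examined because THBS4 and COMP are known from these tissues. The 4 tendon markers of *Hmga2*+/+ MEF summed to 12.0 RPKM for Ctrl and 33.7 for TGFB1, and those of *Hmga2*−/− MEF to 11.3 and 38.1, with 3 of 4 at 1 RPKM or more in each library. *Scx*, the tendon transcription factor, had 6.19, 15.0, 5.54 and 16.9 RPKM, whereas *Tnmd*, the marker of mature tendon cells, had at most 0.242 RPKM and was at 0 in the *Hmga2*+/+ TGFB1 library. The 6 chondrocyte markers summed to 3.62, 6.31, 2.27 and 6.38 RPKM. Most of each chondrocyte sum was *Sox9* (2.998, 4.434, 1.676 and 4.962 RPKM), which was higher with TGFB1 in each genotype. The cartilage collagen *Col2a1* had at most 0.643 RPKM and *Matn1* at most 0.009 RPKM, being at 0 in 3 of the libraries. The 4 smooth muscle and pericyte markers, 1 of which reached 1 RPKM, summed to 8.90, 17.8, 8.98 and 24.0 RPKM, and the 4 endothelial markers to 3.89, 4.86, 7.12 and 8.14 RPKM. The smooth muscle sum was nearly all *Cspg4* (8.78, 17.5, 8.85 and 23.6 RPKM), and *Myh11* had at most 0.054 RPKM. In the endothelial list *Kdr* had 1.11, 4.46, 1.46 and 7.39 RPKM, higher with TGFB1, whereas *Tek* had 2.75, 0.33, 5.65 and 0.686 RPKM, lower with TGFB1. All 4 sums were higher with TGFB1 in each genotype, as was *Thbs4*, although single markers went the other way, and their part in its change was not tested.

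The nearest protein-coding genes were compared with the members. *Thbs3* and *Mtx1*, which encodes a protein of the mitochondrial outer membrane, start 851 bases apart on opposite strands. *Mtx1* had 4.98, 5.44, 4.92 and 6.11 RPKM, with log2 changes on TGFB1 of 0.13 and 0.31, while those of *Thbs3* were −0.46 and −0.27. *Mtx3* lies 49968 bases from *Thbs4* and had log2 changes of 0.16 and 0.20. *Serinc5*, on the other side of *Thbs4*, had 3.94, 3.51, 3.13 and 3.48 RPKM, so neither neighbour of *Thbs4* passed 1.5-fold on TGFB1.

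*Smoc2*, which encodes a secreted calcium-binding matrix protein, is the nearest gene on 1 side of *Thbs2*, at 260709 bases. It rose from 5.98 to 41.8 RPKM in *Hmga2*+/+ MEF (log2 change 2.80 [2.71 to 2.90]) and from 7.45 to 53.0 RPKM in *Hmga2*−/− MEF (2.83 [2.74 to 2.92]). It was thus the only neighbour of a member past 1.5-fold on TGFB1 among those that reached 1 RPKM. *Wdr27*, on the other side of *Thbs2*, had at most 0.019 RPKM. Near *Thbs1*, *Rasgrp1* had at most 0.045 and *Fsip1* at most 0.276 RPKM. *Muc1*, beyond *Thbs3*, had 1.38 to 1.71 RPKM. *Upf1* and *Crtc1*, beside *Comp*, had log2 changes of 0.26 and −0.42 in *Hmga2*+/+ and 0.28 and −0.20 in *Hmga2*−/− MEF.

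Genes whose levels ran most alike over the 4 libraries were found for each member that passed the filter. The Euclidean distance of centred log2 RPKM was used, among the 9748 genes with at least 1 RPKM in all 4 libraries. Genes under 1 RPKM in any library were not compared. *Adam12*, named after its values were seen, was among these, with 0.642, 31.2, 0.986 and 34.7 RPKM. Of the genes compared, those closest to *Thbs4* included *Hbegf*, an EGF family ligand (distance 0.663), and *F2rl1*, a protease-activated receptor (1.16). *Hbegf* had 2.71, 104, 2.98 and 128 RPKM in the order of libraries used above. For *Thbs2* the closest were *Eln*, which encodes elastin (0.227), *Egr2* (0.357) and *Skil* (0.395). *Eln* had 3.61, 14.6, 2.63 and 18.1 RPKM, lowest in the *Hmga2*−/− Ctrl library as *Thbs2* was.

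The nearest to *Thbs1* were the kinase gene *Nuak1* (0.0983), the AP-1 gene *Junb* (0.131) and *F3*, which encodes tissue factor (0.151). *F3* had 10.9, 22.9, 14.1 and 38.6 RPKM. The nearest to *Thbs3* were *Tpp1*, a lysosomal peptidase gene (0.0166), *Gm45062* (0.0456) and *Glcci1* (0.0492). Between members, the closest pair was *Thbs1* and *Comp* (0.891) and the farthest *Thbs3* and *Thbs4* (5.71). *Comp* did not pass the filter and has few reads, so its distance is uncertain. Among the members that passed, *Thbs1* and *Thbs2* were closest (1.54). These distances describe 4 libraries and carry no test.

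Genes that work with thrombospondins were counted by list, to be read beside the shares over all genes tested: 11.4% higher and 16.8% lower on TGFB1 in *Hmga2*+/+ MEF and 13.1% and 15.1% in *Hmga2*−/− MEF. Of 13 receptors of thrombospondins, 11 passed the filter. By the 1.5-fold threshold, 4 rose and 0 fell on TGFB1 in *Hmga2*+/+ MEF (median log2 change 0.26), and 4 rose and 1 fell in *Hmga2*−/− MEF (median 0.43). In *Hmga2*+/+ MEF those that rose were the integrin genes *Itga6* (3.36-fold), *Itgb3* (2.45-fold), *Itgav* (2.19-fold) and *Itgb1* (1.83-fold). Of these, *Itgb3* passed the filter only through the TGFB1 libraries, where it was higher. *Itgav* and *Itgb3* encode the subunits of an integrin that binds the RGD sequence of thrombospondins. *Cd47*, whose product binds the C-terminal domain, was the 1 that fell in *Hmga2*−/− MEF, from 34.2 to 22.4 RPKM, and was chosen for mention after its value was seen.

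Of 14 growth factors, latent complexes and proteases that thrombospondins bind, 13 passed the filter, and 7 rose and 2 fell in each genotype. Their log2 changes had medians of 0.60 for *Hmga2*+/+ and 0.88 for *Hmga2*−/− MEF. *Fgf2*, the angiogenic growth factor that THBS1 and THBS2 sequester, had 3.41, 34.7, 2.30 and 34.0 RPKM in the order of libraries used above, a rise in both genotypes. *Bmp2* rose 9.02-fold and *Vegfa* 3.04-fold in *Hmga2*+/+ MEF, and *Pdgfb* went from 0.061 to 0.9 RPKM. *Pdgfb* passed the filter only through the *Hmga2*−/− TGFB1 library (1.82 RPKM). In *Hmga2*+/+ MEF the 2 that fell, chosen after their values were seen, were *Tgfb2* (11.9 to 5.01 RPKM) and *Mmp14* (193 to 121 RPKM).

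Of 19 matrix partners and cleaving proteases of COMP, 11 passed the filter. In *Hmga2*+/+ MEF 5 rose and 2 fell (median log2 change 0.40), and in *Hmga2*−/− MEF 6 rose and 2 fell (median 0.80). *Acan*, the cartilage proteoglycan, went from 0.039 to 1.15 RPKM and *Matn3* from 0.202 to 0.890 RPKM in *Hmga2*+/+ MEF. Each passed the filter through 1 TGFB1 library only, *Acan* in *Hmga2*+/+ and *Matn3* in *Hmga2*−/− MEF. *Adamts12*, a protease that cleaves COMP, rose 2.32-fold and *Col12a1*, a fibril-associated collagen gene, 2.27-fold. By values seen before they were chosen, *Fn1* was the fifth that rose (465 to 818 RPKM), and *Matn2* (17.8 to 8.78 RPKM) and *Col3a1* (287 to 176 RPKM) were those that fell.

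All 15 genes of secretory partners and glycosyltransferases passed the filter. In *Hmga2*+/+ MEF 2 rose and 1 fell (median log2 change 0.35), and in *Hmga2*−/− MEF 7 rose and 1 fell (median 0.54). *Atf6*, the stress sensor that THBS4 binds in the endoplasmic reticulum, had 4.47, 10.6, 4.62 and 8.94 RPKM, and the chaperone gene *Hspa5* had 191, 346, 187 and 403 RPKM. *B3glct*, which elongates the O-fucose of thrombospondin type 1 repeats, fell in both genotypes, with 11.2, 5.86, 9.56 and 5.38 RPKM in the order of libraries used above. *Dpy19l1*, which mannosylates those repeats, was 1.48-fold higher in *Hmga2*+/+ MEF. None of the 3 metaxin genes passed 1.5-fold in either genotype.

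Of 18 transcription factors and cofactors tied to thrombospondin genes, 17 passed the filter, and 3 rose and 1 fell in each genotype. Their log2 changes had medians of 0.07 for *Hmga2*+/+ and 0.21 for *Hmga2*−/− MEF. *Myc*, which represses *Thbs1* in other cells, rose 3.73-fold in *Hmga2*+/+ MEF, from 5.17 to 19.3 RPKM. *Jun* rose 2.78-fold and *Egr1* 1.64-fold, and *Id1*, another repressor of *Thbs1*, went from 16.0 to 6.77 RPKM.

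Between genotypes the shares over all genes tested were 2.37% higher and 1.64% lower in Ctrl and 3.12% and 1.98% with TGFB1. In the Ctrl libraries 1 of the 11 receptors, 1 of the 13 bound factors and 1 of the 17 transcription factors were at least 1.5-fold higher in *Hmga2*−/− MEF, and 1 of the 11 COMP partners was higher and 1 lower. With TGFB1 present, 3 COMP partners were higher and 1 lower, and 1 bound factor and 1 transcription factor were higher. *Matn3*, 1 of the 3 COMP partners, passed the filter only through the *Hmga2*−/− TGFB1 library, where it was highest, and so did the bound factor. The bound factor was *Pdgfb* in both comparisons, named after its values were seen, and in Ctrl its log2 change of 1.06 [−0.09 to 2.31] came from 10 and 21 reads and its interval included 0. None of the 15 secretory and 3 metaxin genes passed 1.5-fold between genotypes. The 1 lower COMP partner in each case was *Acan*, named after its values were seen, which passed the filter only through the *Hmga2*+/+ TGFB1 library where it was highest. Its log2 change of −0.70 [−1.99 to 0.54] in Ctrl came from 16 and 10 reads, so no difference was detectable there, and with TGFB1 it was −0.92 [−1.14 to −0.69].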

How the data were processed

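RNA-seq of total RNA was analysed for 4 libraries of MEF, 1 for each genotype and treatment. The authors used Trimmomatic on reads of 75 bases, HISAT2 2.1.0 for mapping to mm10 and HOMER for counting, and deposited RPKM for 63759 UCSC known gene transcripts, together with the length of each transcript in bases, which is the other column used. The file header gives exons as the counted feature and the annotated strand, and the paper's methods name genes. The treatment of reads that map to several places is not given in the sources used here. The paper speaks of duplicates, and whether they were pooled is not stated. No column of values was left unused (0).

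Read numbers were derived from the RPKM. At 56140000, 57300000, 56610000 and 56950000 mapped reads (*Hmga2*+/+ Ctrl, *Hmga2*+/+ TGFB1, *Hmga2*−/− Ctrl, *Hmga2*−/− TGFB1), 100% of 1309 to 1329 low values of transcripts under 600 bases lay within 0.1 of a whole read. Values of 0 RPKM were set to 0.001. Since no condition has a replicate, no count test was run. Ratios have exact conditional binomial intervals, and differences between genotypes the exact interval of the odds ratio. Genes were called at 1.5-fold if they reached 1 RPKM in any library.

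Names came from GENCODE vM21 genes that overlap a transcript by at least 50% on its strand, and the longest gene body stood for a gene. The members and lists were chosen with earlier results of these data known. Named were the members, the nearest gene on each side, up to 4 genes per list by the size of the TGFB1 change in *Hmga2*+/+ MEF, the 3 genes closest in profile and *Hmga2*, and beyond this rule genes said to be chosen after their values were seen. An item that the rule also covers is not reported here. *Tnmd*, *Scx*, *Sox9*, *Col2a1*, *Matn1*, *Cspg4*, *Myh11*, *Kdr* and *Tek* are named from the marker lists. Promoters came from RefSeq (GRCm38.p6). Promoter entries matched 3 of the 5 members. Alternatives changed the value added before logs, the filter, the scaling, the transcript and the fold threshold. Steps were tested on simulated data. Python 3.11.15, numpy 2.4.6, pandas 2.3.3, scipy 1.17.1, Biopython 1.88 and matplotlib 3.10.9 were used.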

Additional observations from a re-analysis of the deposited data

Results flagged for a closer look

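*Thbs2* differed between genotypes in opposite directions in the Ctrl and TGFB1 libraries. Its log2 change of *Hmga2*−/− against *Hmga2*+/+ MEF was −0.73 (17.2 against 28.5 RPKM) in Ctrl and 0.24 (137 against 116 RPKM) with TGFB1, and the difference was not tested against the spread between cultures, as each condition has 1 library.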

How the results depend on the processing

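Of 120 log2 changes and differences of the members under alternatives, 120 kept their sign, but much of this was fixed in advance. A pseudocount added to both levels cannot reverse a log2 change, and only *Thbs1* has a second transcript to choose. Of the 120 values, 16 moved beyond the counting interval and 5 crossed 1.5-fold. All 5 were of *Comp*, the member with the fewest reads. With a pseudocount of 1 its changes were 0.27 on TGFB1 in *Hmga2*+/+ MEF, 0.39 between genotypes in Ctrl and 0.26 with TGFB1, and the last was 0.53 with a pseudocount of 0.1 and 0.57 with rescaled libraries. With a pseudocount of 1, *Thbs4* had log2 responses of 5.13 and 4.48, a difference of −0.64. Rescaling by the median ratio shifted all log2 changes by −0.03 to 0.02. It also gave differences between genotypes in the response of 0.27 for *Thbs1* and 0.91 for *Thbs2*, both below their counting intervals. It gave medians over the 5 members of 1.20 and 1.47 on TGFB1 in *Hmga2*+/+ and *Hmga2*−/− MEF and of 0.55 and 0.21 between genotypes in Ctrl and TGFB1, and a pseudocount of 1 gave 0.39 in Ctrl.

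Without the filter, 2412 genes were higher and 3999 lower on TGFB1 in *Hmga2*+/+ MEF, 2702 and 3825 in *Hmga2*−/− MEF, 1622 and 1551 between genotypes in Ctrl, and 1803 and 1514 with TGFB1. At 2-fold the counts were 511 and 749, 582 and 719, 75 and 45, and 92 and 66 in that order. With a pseudocount of 1, 1154 and 1066 were lower on TGFB1 in *Hmga2*+/+ and *Hmga2*−/− MEF, and 115 and 64 were higher and lower between genotypes in Ctrl and 159 and 69 with TGFB1. Rescaling left each count within 1.5 times. No paired analysis was possible because the conditions share fewer than 2 replicate numbers, each having a single library, and for the same reason no replicate could be left out.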
